A study of Mus musculus with 15 samples.

Results

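Paneth cells sit at the base of small intestinal crypts and secrete antimicrobial proteins from large granules. A set of 10 marker genes of these cells was followed across organoids of 3 genotypes. The genes were chosen by name, with earlier results of these data known, so counts over them do not test a set fixed beforehand. All 10 were found among the 43629 genes counted. They are Lyz1, Mmp7, Ang4, Defa17, Defa24, Defa30, Itln1, Mptx2, Habp2 and Nupr1. Poly(A) RNA of whole organoids grown from crypts of the proximal small intestine was sequenced, on a mixed C57B6/129 strain background. The WT group held 5 libraries grown in ENR medium, which contains EGF, Noggin and R-spondin 1 (RSPO1). Lines 1, 2, 5 and 6 carried APC flox/flox alleles (4 libraries), and the fifth library came from organoids that carried the inducible editing transgenes but had not been given doxycycline (dox naive). The Apc group held 4 libraries of Apc delta/delta organoids, numbered as the same lines and grown in EN medium, which lacks RSPO1. The P-Rspo3 group held 4 libraries of organoids with the Ptprk-Rspo3 rearrangement, also grown in EN medium. They were titled EN15d, EN4d, EN_M and EN_F and are named 15d, 4d, M and F here. In that model Cas9 is switched on by doxycycline through the R26-rtTA transgene, and the cultures that expand after RSPO1 withdrawal are polyclonal. How Apc was deleted in these lines is not given in the sources used here, and no source says whether libraries of a group came from separate animals, so p-values measure the spread between these libraries, which may be technical.

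WT and mutant cultures differed in medium as well as genotype, and in those comparisons the 2 cannot be told apart. Apc and P-Rspo3 shared the EN medium. The 3 comparisons share libraries and are not independent. A further 2 libraries have names at odds with their genotype labels, LIPO (labelled dox naive WT, ENR) and NAIVE_F (labelled P-Rspo3, EN). Both were kept out of all comparisons. Total counts ran from 28902729 to 35528495 in the 13 libraries compared, and were 27466904 in LIPO and 28234329 in NAIVE_F. Rspo3 lay between 6.26 and 11.5 FPKM (fragments per kilobase of transcript, scaled to the mapped reads of the library) in P-Rspo3, between 0.0760 and 0.668 in Apc, and at most at 0.0112 in WT. A count over the whole Apc gene does not check a deletion inside it, and Apc lay at 28.3 to 30.5 FPKM in Apc organoids against 11.6 to 22.3 in WT. Axin2, a standard Wnt target, lay at 148 to 173 FPKM in Apc, 24.7 to 51.6 in WT and 22.6 to 35.2 in P-Rspo3.

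Paneth cells arise from the secretory lineage, and both their maturation and their position at the crypt base depend on Wnt signalling. Lyz1 encodes lysozyme, which cleaves bacterial cell walls. The Defa genes encode alpha-defensins (cryptdins), peptides that permeabilise bacterial membranes and that are made as inactive precursors. Mmp7, matrilysin, is the protease that cuts these precursors into active peptides in the mouse. Ang4 is an angiogenin with microbicidal activity, Itln1 is a lectin that binds bacterial glycans and is also made by goblet cells, and Mptx2 is a mucosal pentraxin. Habp2 encodes a hyaluronan-binding serine protease and Nupr1 a small stress-induced nuclear protein, so neither is a known antimicrobial product.

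The alpha-defensin genes lie as near-identical copies on chromosome 8, and the coding sequences of the 3 copies followed here are shown because reads of one can match another. Defa24 lies at chr8:21734494-21735471, Defa17 at chr8:21655780-21656735 and Defa30 at chr8:21134642-21135598 (GRCm38, plus strand). Each sequence, from the GENCODE transcript of the gene, runs 5′ to 3′ over 279 bases or 93 codons, without the stop codon. Capitals mark the bases that differ from Defa24.
Defa24: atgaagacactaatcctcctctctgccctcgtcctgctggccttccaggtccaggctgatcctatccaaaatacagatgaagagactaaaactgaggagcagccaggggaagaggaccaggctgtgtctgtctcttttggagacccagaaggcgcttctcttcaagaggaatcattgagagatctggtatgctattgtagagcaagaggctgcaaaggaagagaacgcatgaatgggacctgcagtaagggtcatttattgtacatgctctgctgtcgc
Defa17: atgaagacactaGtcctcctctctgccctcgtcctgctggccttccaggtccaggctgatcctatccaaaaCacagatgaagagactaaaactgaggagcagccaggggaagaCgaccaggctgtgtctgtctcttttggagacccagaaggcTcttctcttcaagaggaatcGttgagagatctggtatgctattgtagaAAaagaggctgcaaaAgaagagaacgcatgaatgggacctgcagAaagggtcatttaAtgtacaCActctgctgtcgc
Defa30: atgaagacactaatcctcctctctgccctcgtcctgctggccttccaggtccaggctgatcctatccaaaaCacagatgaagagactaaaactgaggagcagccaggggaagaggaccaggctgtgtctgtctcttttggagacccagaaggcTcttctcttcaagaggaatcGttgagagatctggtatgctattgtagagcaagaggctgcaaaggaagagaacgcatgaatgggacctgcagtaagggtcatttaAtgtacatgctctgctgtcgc
Defa30 differed from Defa24 at 4 bases (98.6% identity) and Defa17 at 12 bases (95.7% identity), while Defa17 and Defa30 differed from each other at 8 bases (97.1% identity). Over the whole transcript, 320 of 348 windows of 50 bases in Defa17 (92.0%) also occurred in a transcript of another gene, compared with 183 of 349 in Defa30 (52.4%) and 104 of 370 in Defa24 (28.1%). With windows of 100 bases, 90.6% of Defa17 was still shared, with Defa3 and Defa30, and none of Defa24. Among the other members, 134 of 745 windows of 50 bases were shared in Mptx2, with Mptx1, and 195 of 1214 in Lyz1, with Lyz2. Ang4 shared 31 of 660 windows and Itln1 11 of 1092, and Mmp7, Habp2 and Nupr1 shared none. Values of single alpha-defensin genes, of Defa17 above all, are therefore uncertain where reads could be split between copies or left out.

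In Apc organoids 8 of the 10 genes fell and 1, Mmp7, rose against WT. The largest decreases were in the alpha-defensins and Itln1, and lysozyme, Ang4, Habp2 and Nupr1 fell less. Calls came from edgeR's quasi-likelihood test on the whole table and needed more than a log2 unit of change in either direction, with p under 0.05 after adjustment over all genes (Benjamini-Hochberg). The background was broad, since 12.2% of 16749 genes tested were called higher and 14.1% lower. Of all calls 46.4% were higher, against 59.9% when limma was run on log2(FPKM + 0.1), a scale on which the median of all genes was 0.28 above 0. On that scale and on log2(FPKM + 1), where the median was 0.17, each of the 9 called members kept its direction and its call. All 10 members passed the filter on low values (0.1 FPKM or more in 4 or more libraries), and their median log2 fold change was -2.48, against 0.00058 over all genes tested. Because whole organoids were sequenced, fewer Paneth cells and less RNA per cell cannot be told apart.

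**Figure D1:**
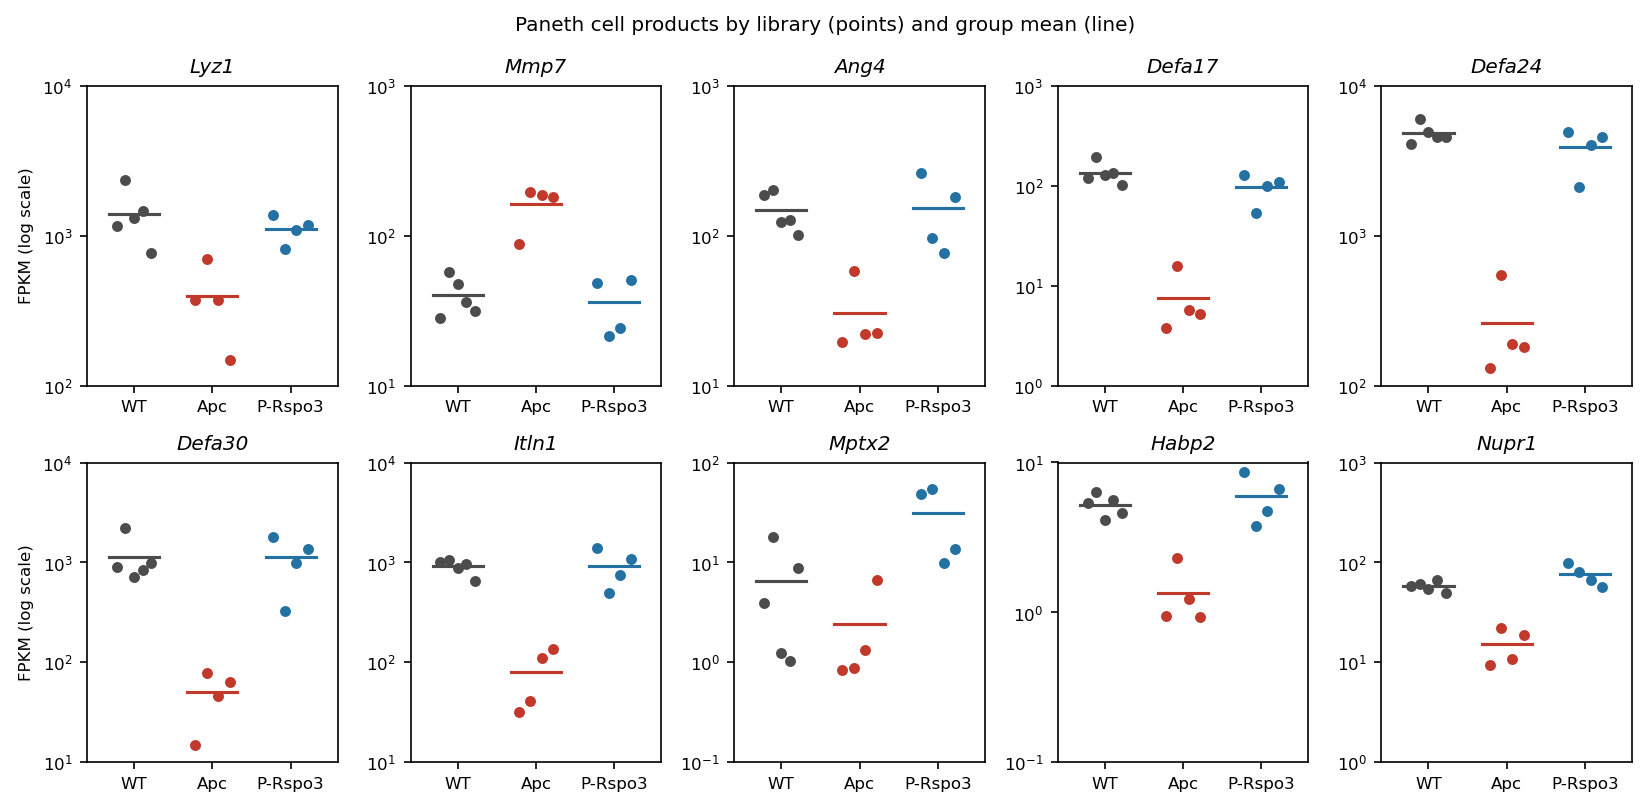
FPKM of the 10 Paneth cell genes in each library on log axes, where points are libraries and the line is the group mean (WT n = 5, Apc n = 4, P-Rspo3 n = 4). The 4 Apc libraries lie below every WT library in 8 genes and above every WT library for Mmp7, and the groups overlap for Mptx2.

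Defa24 had the highest level per length of the 10 genes in WT. Its FPKM was 4087, 6013, 4959 and 4539 in WT replicates 1, 2, 5 and 6 and 4538 in the naive library. In Apc replicates 1, 2, 5 and 6 it was 132, 553, 189 and 183. Every Apc library lay far below every WT library, and replicate 2 stood above the other Apc libraries. In counts Defa24 was 22.2-fold lower in Apc (log2 fold change -4.47 ± 0.43, SE, edgeR adjusted p = 7.4e-06). Defa30 had 893, 2193, 711, 842 and 982 FPKM in WT (replicates 1, 2, 5, 6 and naive) and 15.02, 78.7, 46.0 and 64.5 in Apc (replicates 1, 2, 5 and 6). WT replicate 2 was high, and Apc replicate 1 was low. Defa30 was 25.4-fold lower in Apc (log2 fold change -4.67 ± 0.49, SE, edgeR adjusted p = 1.5e-05). Defa17, whose transcript is mostly shared with other copies, had 119, 194, 128, 134 and 102 FPKM in WT and 3.82, 15.9, 5.72 and 5.20 in Apc, in the same order of replicates. It was 20.3-fold lower (log2 fold change -4.34 ± 0.40, SE, edgeR adjusted p = 4.9e-06). The counts of all 39 alpha-defensin loci were also summed to 1 feature. Its log2 fold change was -4.28 (edgeR adjusted p = 6.7e-06). The sum does not depend on how counted reads are split between copies within this set. It would still lack any reads left out for matching several copies. Without Apc replicate 2, the log2 fold changes of Defa24, Defa30 and Defa17 were -5.14, -4.96 and -4.97.

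Itln1 had 1010, 1057, 885, 968 and 650 FPKM in WT, the lowest in the naive library, and 32.1, 41.2, 112 and 137 in Apc replicates 1, 2, 5 and 6. Here Apc replicates 5 and 6 were the high libraries, unlike for the alpha-defensins. Itln1 was 14.0-fold lower (log2 fold change -3.81 ± 0.43, SE, edgeR adjusted p = 2.3e-05).

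Lyz1 fell less. Its FPKM was 1171, 2343, 1309, 1456 and 775 in WT and 374, 700, 373 and 148 in Apc. The highest Apc library, replicate 2, came close to the lowest WT library, the naive one, and the groups did not overlap. Lyz1 was 4.29-fold lower (log2 fold change -2.10 ± 0.43, SE, edgeR adjusted p = 0.0015). Ang4 had 187, 202, 125, 127 and 101 FPKM in WT and 19.7, 58.2, 22.3 and 22.4 in Apc, where replicate 2 was again high. It was 5.85-fold lower (log2 fold change -2.55 ± 0.35, SE, edgeR adjusted p = 1.1e-04).

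Habp2 was the least abundant of the 10 genes per length in WT, with 5.34, 6.34, 4.16, 5.64 and 4.63 FPKM, and 0.945, 2.32, 1.23 and 0.929 in Apc. It was 5.30-fold lower (log2 fold change -2.41 ± 0.21, SE, edgeR adjusted p = 3.0e-06). On the log2(FPKM + 1) scale its difference was -1.43, since the pseudocount is of the size of its Apc values. Nupr1 was even across WT, with 57.9, 60.4, 53.8, 66.5 and 49.96 FPKM, and lower in every Apc library, with 9.38, 21.9, 10.9 and 19.0. It was 4.49-fold lower (log2 fold change -2.17 ± 0.25, SE, edgeR adjusted p = 2.6e-05).

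Mmp7 went the other way. Its FPKM was 28.5, 57.2, 47.9, 36.4 and 31.6 in WT and 88.4, 198, 187 and 183 in Apc replicates 1, 2, 5 and 6. Replicate 1 was the lowest Apc library and still lay above every WT library. Mmp7 was 3.35-fold higher in Apc (log2 fold change 1.74 ± 0.26, SE, edgeR adjusted p = 1.8e-04). The RNA of this protease therefore rose in the same libraries in which the RNA of its alpha-defensin substrates fell. Protein was not measured. Per 100 FPKM of Lyz1, there were 2.43 to 4.08 FPKM of Mmp7 in WT, 2.22 to 4.34 in P-Rspo3 and 23.6 to 123 in Apc. Lyz1 per FPKM of Defa24 was 0.171 to 0.390 in WT, 0.257 to 0.384 in P-Rspo3 and 0.812 to 2.82 in Apc. These ratios were formed after the values were seen. In two-sided exact permutation tests for Apc against WT both had p = 0.0159, or 0.0514 after adjustment over the 18 tests of such sums and ratios, and so missed the threshold.

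Mptx2 varied too much between libraries to be called. It had 3.89, 17.8, 1.23, 1.04 and 8.90 FPKM in WT and 0.848, 0.887, 1.32 and 6.62 in Apc, where replicate 6 stood far above the others. The groups overlapped (log2 fold change -1.75 ± 0.92, SE, edgeR adjusted p = 0.125). Without Apc replicate 6 the value was -2.98 and the gene was called (edgeR adjusted p = 0.022), and without WT replicate 2 it was -0.97 (edgeR adjusted p = 0.363).

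**Figure D2:**
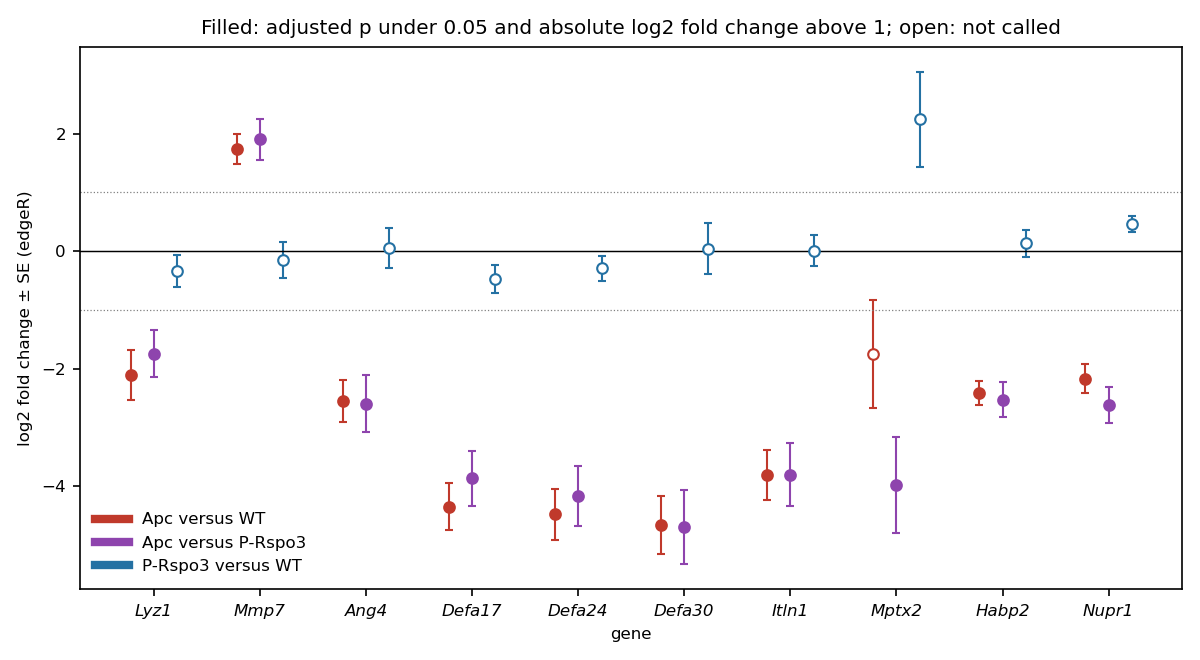
Log2 fold change ± SE (edgeR) of each gene in the 3 comparisons, with filled points for called genes and dotted lines at a log2 fold change of 1 in each direction. Mmp7 lies above 0 and the other 9 genes below 0 in both comparisons of Apc, with Mptx2 open against WT, and every point of P-Rspo3 against WT is open.

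In two-sided exact permutation tests on FPKM, the 9 called members each had p = 0.0159 for Apc against WT, the smallest that 4 against 5 libraries can give (0.0451 after Benjamini-Hochberg adjustment over 30 tests, 10 genes in 3 comparisons). Mptx2 had p = 0.286 in the same exact test. The share of all genes that separate in this way was not computed, and 10513 of 16749 genes had an unadjusted edgeR p under 0.05. The order of the levels also differed between the groups. In WT the order by mean FPKM was Defa24 (4827 ± 731, SD, n = 5), Lyz1 (1411 ± 580), Defa30 (1124 ± 606), Itln1 (914 ± 161), Ang4 (148 ± 43.4), Defa17 (135 ± 35.0), Nupr1 (57.7 ± 6.32), Mmp7 (40.3 ± 12.0), Mptx2 (6.57 ± 7.03) and Habp2 (5.22 ± 0.855). The ranges of Lyz1, Defa30 and Itln1 overlapped in turn, as did those of Ang4 and Defa17, of Nupr1 and Mmp7, and of Mptx2 and Habp2. In Apc the order was Lyz1 (399 ± 227, SD, n = 4), Defa24 (264 ± 194), Mmp7 (164 ± 50.8), Itln1 (80.4 ± 51.7), Defa30 (51.1 ± 27.5), Ang4 (30.7 ± 18.4), Nupr1 (15.3 ± 6.11), Defa17 (7.65 ± 5.53), Mptx2 (2.42 ± 2.81) and Habp2 (1.36 ± 0.657). The range of each gene there overlapped that of the next in order. In P-Rspo3 the order was Defa24 (3921 ± 1252, SD, n = 4), Defa30 (1124 ± 628), Lyz1 (1118 ± 234), Itln1 (926 ± 390), Ang4 (154 ± 85.0), Defa17 (97.8 ± 31.5), Nupr1 (75.8 ± 18.5), Mmp7 (36.3 ± 15.7), Mptx2 (31.5 ± 23.0) and Habp2 (5.96 ± 2.14). There the ranges of Defa30, Lyz1 and Itln1 overlapped in turn, as did those of Ang4, Defa17 and Nupr1, and of Mmp7 and Mptx2.

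In P-Rspo3 organoids no member was called against WT. The count of 0 members stood beside 1 of 15992 genes called higher (0.00625%) and 0% called lower, so the background itself was near empty. At an unadjusted p under 0.05 there were 2159 genes, of which 2 were members, Mptx2 and Nupr1. No member was called by DESeq2, limma or the newer form of the edgeR test either, although DESeq2 called 228 genes in all. The median log2 fold change of the 10 genes was 0.03, against 0.0041 over all genes tested.

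Defa24 had 4954, 2136, 4011 and 4585 FPKM in P-Rspo3 replicates 15d, 4d, M and F, with 4d below every WT library (log2 fold change -0.29 ± 0.22, SE, edgeR adjusted p = 0.601). Defa30 had 1810, 326, 990 and 1369 FPKM in the same order (log2 fold change 0.04 ± 0.43, SE, edgeR adjusted p = 0.993). Defa17 had 128, 53.8, 99.4 and 110 FPKM (log2 fold change -0.47 ± 0.24, SE, edgeR adjusted p = 0.425). All 3 alpha-defensins were lowest in 4d and highest in 15d. Lyz1 had 1386, 820, 1091 and 1176 FPKM, within the WT range, and a log2 fold change of -0.34 ± 0.27 (SE, edgeR adjusted p = 0.627). Itln1 had 1382, 489, 748 and 1087 FPKM (log2 fold change 0.01 ± 0.26, SE) and Ang4 262, 97.3, 76.4 and 182 (log2 fold change 0.06 ± 0.34, SE). Both spread more widely than WT, on either side of it. Mmp7 had 48.7, 21.4, 24.3 and 51.0 FPKM (log2 fold change -0.15 ± 0.30, SE) and Habp2 8.60, 3.79, 4.75 and 6.70 (log2 fold change 0.13 ± 0.23, SE).

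Replicate 4d was the lowest P-Rspo3 library for 7 of the 10 genes and 15d the highest for 8, so the spread within this group followed the library. The other groups showed this too. Replicate 2 was the highest WT library for 9 genes, and in Apc replicate 2 was the highest for 8 and replicate 1 the lowest for 8. The titles of 4d and 15d may name days in EN medium, and an effect of time was not tested. Other secretory markers were mixed in 4d. The summed FPKM of 8 goblet cell markers was 2606 there, against 1428 to 3139 in the group, while that of 8 enteroendocrine markers was 81.4, below the WT range of 150 to 256. Without 4d, the log2 fold changes of Defa24, Defa30 and Defa17 against WT were -0.09, 0.35 and -0.26, and none was called.

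Mptx2 and Nupr1 were the members with the lowest unadjusted p. Mptx2 had 48.3, 54.3, 9.92 and 13.6 FPKM in P-Rspo3 replicates 15d, 4d, M and F, against 1.04 to 17.8 in WT. The libraries 15d and 4d lay above every WT library and the other two within the WT range (log2 fold change 2.25 ± 0.81, SE, edgeR adjusted p = 0.259). Mptx1, which shares sequence with it and was named after its values were seen, was also highest in 15d and 4d. Mptx1 had 104, 144, 28.0 and 9.52 FPKM in 15d, 4d, M and F, 21.3 in the naive WT library and 0.549 to 2.07 in the WT flox lines. The 2 genes differed elsewhere. For Mptx1, M also lay above every WT library, and WT replicate 2, the highest WT library for Mptx2, had 0.590 FPKM. Nupr1 had 98.9, 81.2, 66.6 and 56.4 FPKM, above the WT range of 49.96 to 66.5 in 3 of 4 libraries, by a small margin in M. Its log2 fold change was 0.47 ± 0.13 (SE, edgeR adjusted p = 0.181), under the fold threshold.

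Between the 2 mutants, both grown without RSPO1, 9 members were lower and 1, Mmp7, higher in Apc than in P-Rspo3. The background here was 13.4% of 16456 genes called higher and 13.3% called lower. Of these calls 50.3% were higher, against 61.2% with limma on log2(FPKM + 0.1), where the median of all genes was 0.25. All 10 members kept their direction and call on that scale. Mmp7 was 3.75-fold higher (log2 fold change 1.91 ± 0.35, SE, edgeR adjusted p = 0.0012). Of the alpha-defensins, Defa24 had a log2 fold change of -4.17, Defa30 of -4.70 and Defa17 of -3.86. Itln1 was 13.9-fold, Nupr1 6.14-fold, Ang4 6.04-fold, Habp2 5.77-fold and Lyz1 3.35-fold lower. The edgeR adjusted p-values of the 10 genes ran from 7.6e-05 to 0.0044. Mptx2, which was not called against WT, was 15.7-fold lower than in P-Rspo3 (log2 fold change -3.98 ± 0.82, SE, edgeR adjusted p = 0.0025), and without Apc replicate 6 the value was -5.21. The groups did not overlap in CPM for any of the 10 genes, and each had an exact permutation p of 0.0286, the smallest that 4 against 4 libraries allow (0.0451 adjusted over the same 30 tests). The share of all genes without overlap was not computed. Differences were common, since 10019 of 16456 genes had an unadjusted edgeR p under 0.05. That is a different measure from overlap, so whether this separation is particular to the members cannot be said.

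The 39 alpha-defensin loci together held 0.151% to 0.257% of the counts in WT, 0.0784% to 0.231% in P-Rspo3 and 0.0051% to 0.0226% in Apc. Between 15 and 17 loci had more than 3 counts in a WT library and between 10 and 13 in an Apc library. Defa24 took 69.2% to 81.4% of the alpha-defensin counts in WT, Defa30 12.8% to 23.2% and Defa17 1.94% to 2.59%. In Apc the 3 loci together held 72.9% to 88.6%, against 94.5% to 96.7% in WT and 90.5% to 98.3% in P-Rspo3. The remainder in Apc was mostly Defa21, Defa22 and Defa34. In a two-sided exact permutation test for Apc against WT, the share held by the 3 loci had p = 0.0159. After adjustment over the 18 tests of sums and ratios that p was 0.0514, and so missed the threshold. Defa22 held 3.93% to 11.4% of the alpha-defensin counts in Apc and 0.251% to 0.590% in WT, and Defa21 3.43% to 8.83% against 0.458% to 0.749%. Per library, Defa22 had 26.2, 31.1, 15.2, 30.1 and 36.02 FPKM in WT (replicates 1, 2, 5, 6 and naive) and 6.92, 31.4, 26.7 and 40.99 in Apc (log2 fold change -0.35 ± 0.41, SE, edgeR adjusted p = 0.491). Defa21 fell by 1.08 on the log2 scale (SE 0.42, edgeR adjusted p = 0.046) and Defa34 was 4.01-fold lower (SE 0.39 on the log2 scale, edgeR adjusted p = 0.0011). Defa21 and Defa22 are near copies of each other, with 40.4% and 40.3% of their windows of 100 bases in common, and in this search of windows of 50 bases neither shared one with Defa17, Defa24 or Defa30. Reads of the pair could thus be split between its members. The loci Defa21, Defa22 and Defa34 were picked for description after their values were seen.

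**Figure D3:**
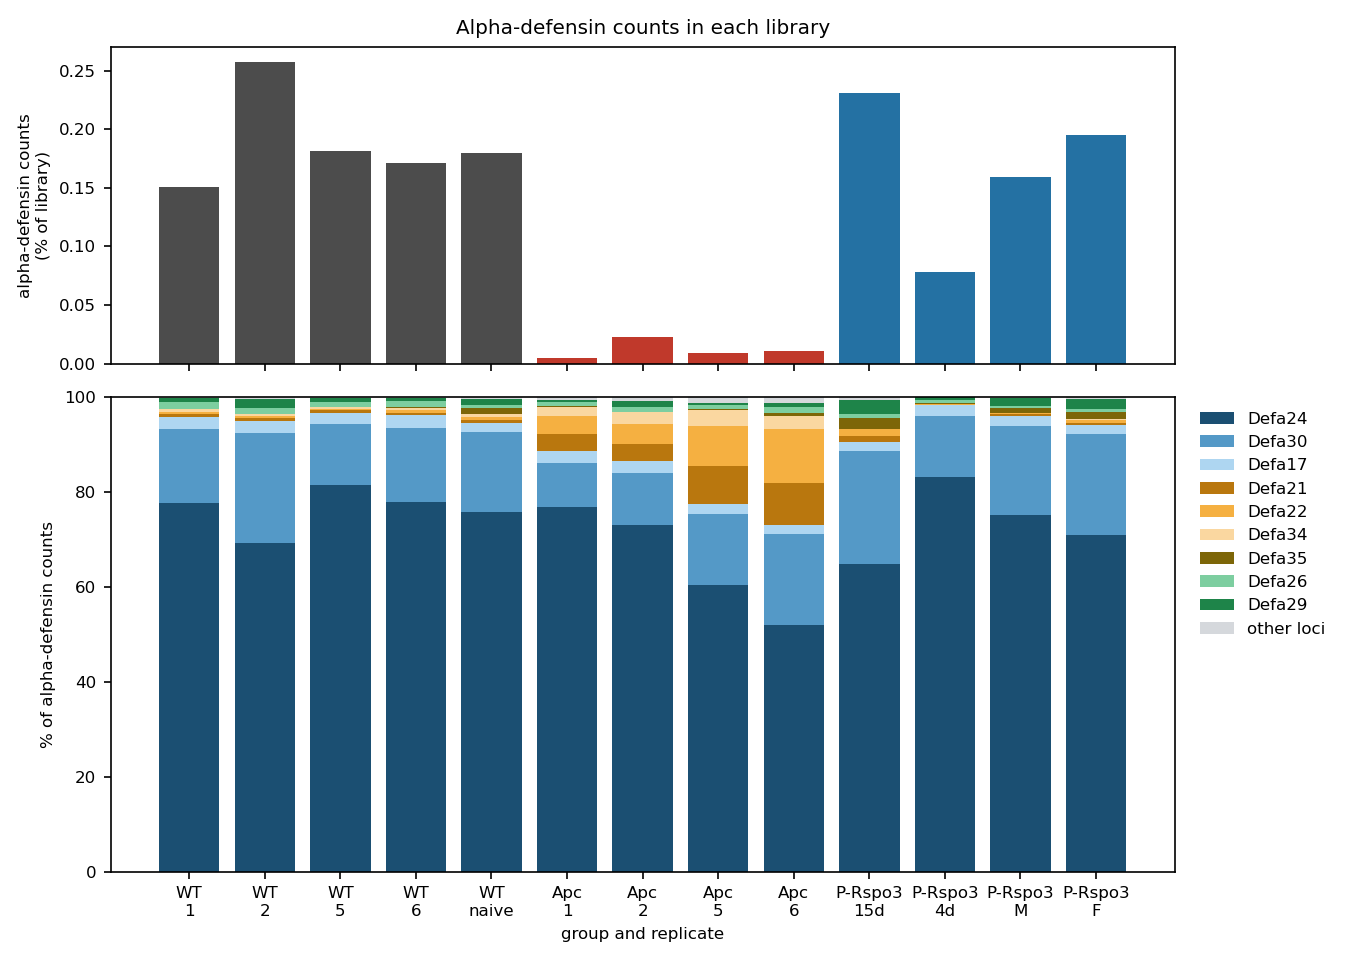
Counts of all 39 alpha-defensin loci as percent of each library (upper bars) and the percent of those counts at each locus (stacked lower bars, summing to 100 in each library), for WT, Apc and P-Rspo3 replicates. The upper bars are lowest in the 4 Apc libraries, where Defa21 and Defa22 make up a larger part of the stack.

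Defa35 showed a different kind of unevenness. It had 6 to 35 counts in the 4 WT flox lines, 667 in the naive library, 3 to 21 in Apc, and 1692, 25, 451 and 908 in P-Rspo3 replicates 15d, 4d, M and F. Its call against WT (log2 fold change -4.22 ± 1.52, SE, edgeR adjusted p = 0.033) came with 1 high WT library, and the 4 flox lines overlapped Apc. The gene was named after its values were seen.

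The counts and the FPKM came from different programs, and their ratio was used to check whether copies were treated alike. FPKM divided by CPM (counts scaled to the library total) varied little across the 13 libraries for Defa24 (3.28 to 3.50) and for Lyz1 (0.662 to 0.684). It varied more for Defa30 (3.07 to 3.81) and for Defa17 (2.64 to 3.05), with group medians for Defa17 of 3.04 in WT, 2.78 in Apc and 2.96 in P-Rspo3. A spread of this size is small beside the fold changes of Defa17 and Defa30 in Apc. The ratio varied more for Habp2 (0.344 to 0.582), with group medians of 0.426 in WT, 0.430 in Apc and 0.411 in P-Rspo3. It also varied more for Defa35 (2.55 to 4.05 over 7 libraries with enough counts) and for Defa34, with a median of 2.31 in WT and 4.55 in P-Rspo3.

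Among other genes of Paneth cells, 25 of 52 matched ones were tested for Apc against WT (57 symbols were listed, of which Gm15284, Gm15308, Gm15299, Gm21002 and Itlnb matched no gene). Of the 25, 18 fell, 3 rose and 4 were not called, with a median log2 fold change of -2.66. Over all 16749 genes tested, 14.1% were called lower and 12.2% higher. Most of those that fell were alpha-defensin loci, many of which share sequence, so the count mainly extends the result on that family. The summed FPKM of the list overlapped between the groups, at 759 to 1353 in WT and 460 to 1068 in Apc. The 3 that rose were Pla2g2a, a secreted phospholipase gene, and the C-type lectin genes Reg3b and Reg3g. These are RNA levels, and neither protein nor enzyme activity was measured in these libraries. Pla2g2a had 9.44, 13.2, 12.0, 9.79 and 9.23 FPKM in WT and 66.3, 201, 244 and 245 in Apc replicates 1, 2, 5 and 6 (13.4-fold higher, log2 fold change 3.75 ± 0.35, SE, edgeR adjusted p = 5.3e-06). Every Apc library lay above every WT library, and replicate 1 was lowest in Apc, as for Mmp7. Pla2g2a and Reg3b were named after their values were seen. Reg3g rose 4.13-fold (edgeR adjusted p = 4.3e-04) and Reg3b 4.71-fold (edgeR adjusted p = 0.0067), whereas their relative Reg3a fell from 34.9 to 166 FPKM in WT to 0.136 to 0.736 in Apc (254-fold lower, log2 fold change -7.99 ± 0.64, SE, edgeR adjusted p = 2.0e-06). The alpha-defensin-like gene Gm14851 fell by 5.65 on the log2 scale (SE 0.79, edgeR adjusted p = 1.1e-04). The pseudogenes Defa-ps1 and Defa-ps18 had 16 to 25 and 7 to 12 counts in WT and at most 2 and 1 in Apc, which is too few for a fold. The lipase cofactor Clps, colipase, was 17.9-fold lower and the lipase gene Pnliprp2 9.40-fold lower. Lyz2, the myeloid lysozyme, had at most 29 counts in any WT or Apc library, against 34974 for Lyz1 in the naive library alone. Cd24a, a surface marker of Paneth cells, had a log2 fold change of 0.84 ± 0.14 (SE, edgeR adjusted p = 3.7e-04), under the fold threshold, and was named after its values were seen. Against WT, P-Rspo3 had 0 calls among the 27 genes of this list that were tested.

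**Figure D4:**
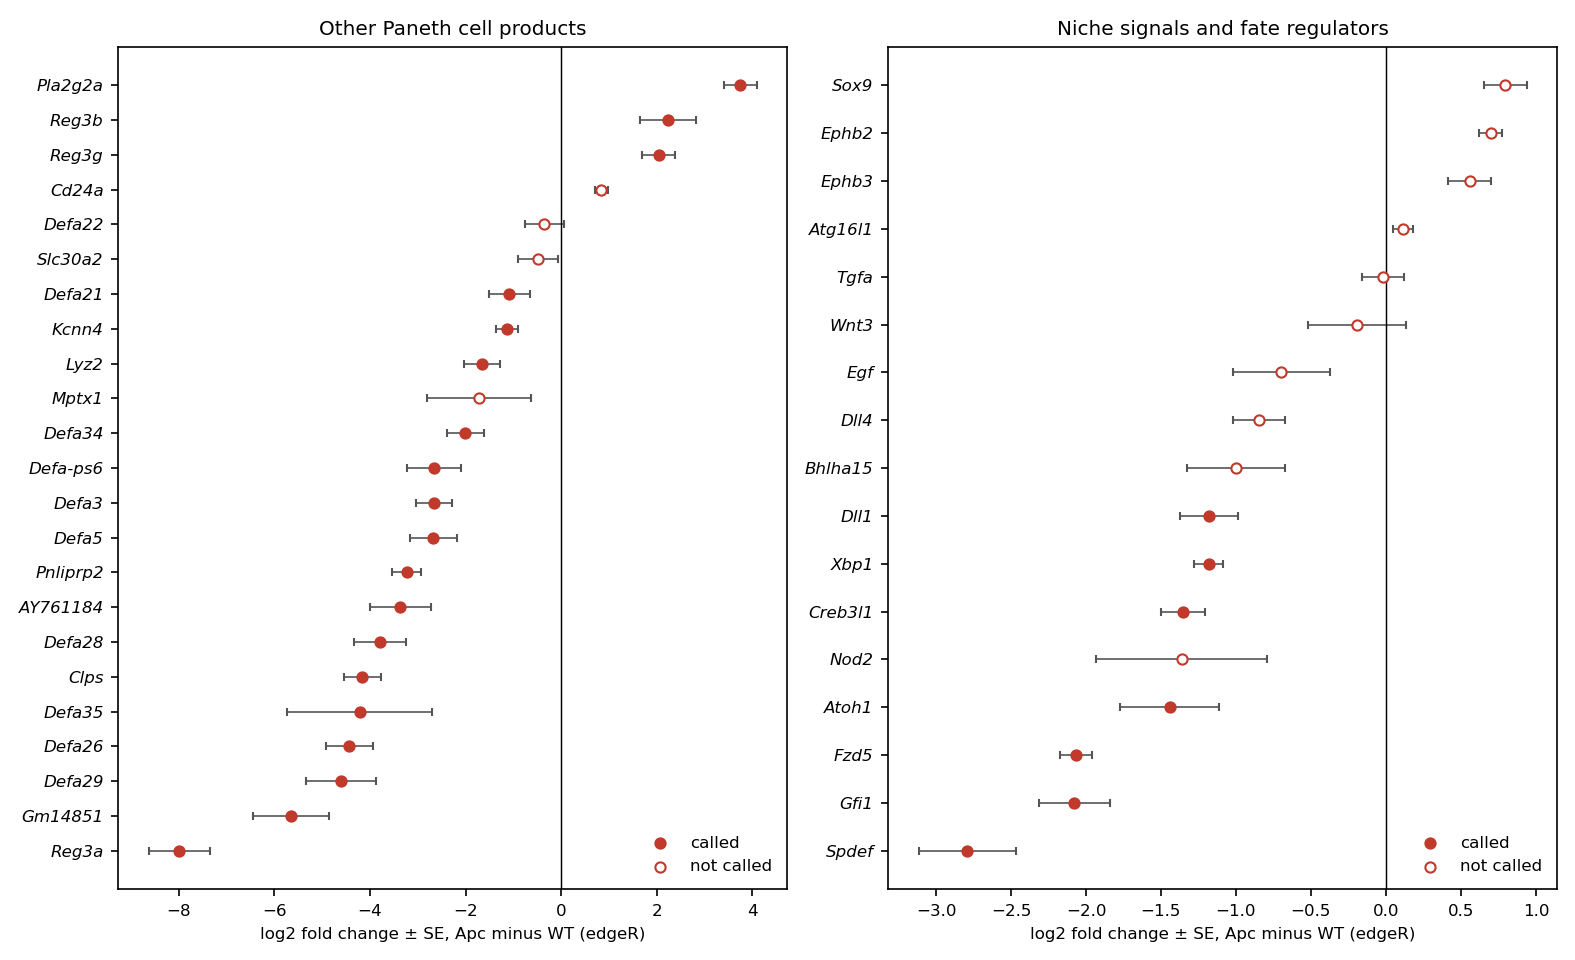
Log2 fold change ± SE (edgeR) in Apc against WT for other Paneth cell products (left) and for niche signals and fate regulators (right), with filled points for called genes. Genes with at most 3 counts in every library of a group are left out. Pla2g2a, Reg3b, Reg3g and, uncalled, Cd24a lie to the right of 0 and the other products to the left.

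Among signals that Paneth cells give to stem cells, of 5 tested in Apc against WT, 1 was called, the Notch ligand Dll1 (log2 fold change -1.18 ± 0.19, SE, edgeR adjusted p = 3.4e-04). Wnt3 had a log2 fold change of -0.19 ± 0.33 (SE, edgeR adjusted p = 0.644), Egf -0.70 ± 0.32 (SE, edgeR adjusted p = 0.088) and the Notch ligand Dll4 -0.85 ± 0.18 (SE, edgeR adjusted p = 0.0017, under the fold threshold). Of 12 regulators of secretory and Paneth cell fate, 6 fell and none rose past the threshold. Over all 16749 genes tested, 14.1% were called lower and 12.2% higher. Spdef, a factor required for goblet and Paneth cell maturation, fell by 2.79 on the log2 scale (SE 0.32, edgeR adjusted p = 2.8e-05). Gfi1, which acts in the same lineage, fell by 2.08 (SE 0.24, edgeR adjusted p = 2.5e-05), and Fzd5, the Wnt receptor of Paneth cells, by 2.07 (SE 0.11, edgeR adjusted p = 8.6e-08). Atoh1, which specifies the secretory lineage, fell by 1.44 (SE 0.33, edgeR adjusted p = 0.0031). Sox9, a Wnt-dependent factor needed for Paneth cell formation, had a log2 fold change of 0.80 ± 0.14 (SE, edgeR adjusted p = 5.7e-04) and the Wnt target Ephb3, which places Paneth cells at the crypt base, one of 0.56 ± 0.14 (SE, edgeR adjusted p = 0.0063), both under the fold threshold. Against P-Rspo3, Sox9 passed it, at 1.02 ± 0.13 (SE, edgeR adjusted p = 1.2e-04). In P-Rspo3 against WT, 0 of 12 regulators and 0 of 6 niche signals were called.

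The products fell together with markers of other differentiated cells. In Apc against WT, 8 of 8 enterocyte markers were lower, with a summed level of 36.9 to 66.9 FPKM in Apc and 3487 to 9977 in WT. Of 7 goblet cell markers tested 6 were lower (203 to 516 against 1857 to 2568 FPKM), of 8 enteroendocrine markers 4 (22.7 to 46.3 against 150 to 256 FPKM) and of 4 tuft cell markers 2. Beside these counts, 14.1% of all genes tested were called lower and 12.2% higher. Of 5 stem cell markers 4 were higher, while Olfm4 was 877-fold lower. Of 6 general epithelial markers 1 was higher and 1 lower (1556 to 1880 against 1347 to 1563 FPKM). Markers of cells that epithelial cultures should lack were also summed. The 5 fibroblast markers summed to at most 0.311 FPKM in any library, with Pdgfra called higher in Apc at 54 to 73 counts. The 6 leukocyte markers summed to at most 10.2 FPKM, and 4 of them had at most 3 counts in every Apc library. Of the 2 tested, Cd68 was higher in Apc (6.24 ± 2.76 FPKM, SD, n = 4) and Csf1r lower. The 5 pancreatic acinar markers summed to 11.7 to 20.9 FPKM in Apc and 3.84 to 7.20 in WT, and 1 was tested, Cela1, at 16.8 ± 3.89 FPKM (SD, n = 4) in Apc and 5.04 ± 1.31 (SD, n = 5) in WT. It was called higher in Apc, and the other 4 had at most 3 counts in every Apc library. In P-Rspo3 against WT no gene of these lists was called. The part of all these shifts in the results on Paneth cell genes was not tested.

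For 3 members the genes most like them were sought over the 13 libraries, by the root mean square difference of log2(CPM + 0.5) after centring, among 12632 genes with a mean CPM of at least 1. Closest to Mmp7 were Kcnh2 (0.309), Apln (0.314) and Fam89a (0.337), where the median gene lay at 0.995. Closest to Ang4 were Habp2 (0.393), itself a member, C530008M17Rik (0.419) and Chga (0.448), with a median of 1.35. Closest to Lyz1 were 5330417C22Rik (0.423), Adgrg4 (0.449) and Ret (0.452), with a median of 1.16.

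Since Apc loss activates beta-catenin and its TCF/LEF partners, the promoters were searched for a core of the TCF/LEF motif on both strands. The words were CTTTGAA, its variant CTTTGAT, and likewise CTTTGTA or also CTTTGTT. They cannot overlap on the same strand, while matches on opposite strands can. RefSeq promoters on GRCm38.p6, each reaching from 250 bases before to 50 bases after the start, were available for 8 of the 10 members, not for Defa17 and Defa24. A match was held by 16.9% of all 32851 promoters. Among the members Mmp7 and Defa30 held 1 each, and Lyz1, Ang4, Itln1, Mptx2, Habp2 and Nupr1 none in this window. The promoters with a match are shown because Mmp7 rose and Defa30 fell in Apc. They run 5′ to 3′ on the plus strand and stop 25 bases after the start, and capitals mark the match. The first lies at chr9:7691840-7692114 and the second at chr8:21134400-21134674.
Mmp7: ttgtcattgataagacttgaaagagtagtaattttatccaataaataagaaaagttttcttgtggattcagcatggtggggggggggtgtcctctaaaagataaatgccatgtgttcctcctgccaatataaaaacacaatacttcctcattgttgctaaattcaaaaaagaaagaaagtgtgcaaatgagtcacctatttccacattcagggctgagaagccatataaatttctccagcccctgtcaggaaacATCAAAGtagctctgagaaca
Defa30: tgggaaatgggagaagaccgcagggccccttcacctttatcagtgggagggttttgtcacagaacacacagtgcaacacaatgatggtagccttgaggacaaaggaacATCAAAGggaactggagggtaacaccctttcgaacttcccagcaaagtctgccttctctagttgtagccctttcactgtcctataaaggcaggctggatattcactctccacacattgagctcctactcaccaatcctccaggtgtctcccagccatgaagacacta
The word in both is ATCAAAG, the reverse complement of CTTTGAT. It begins at position 4 relative to the start of Mmp7 and at position -142 relative to that of Defa30. A second annotated start of Mmp7 lies downstream, and relative to it the same site begins at position -247. A match of these letters was thus found at a gene that rose and at one that fell, and it is a description of the sequence only.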

How the data were processed

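Poly(A) RNA-seq libraries of mouse intestinal organoids were grouped by genotype label. The authors aligned reads with STAR to GRCm38, counted them per gene with HTSeq 0.6.0 and deposited those counts (43629 genes). FPKM, deposited by the authors for 43437 genes, came from Cufflinks 2.2.1. How reads matching several copies were counted, strand settings, the annotation release and read length are not given in the sources used here. Totals of 28902729 to 35528495 counts in the 13 libraries compared set the counting error.

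Counts were tested with edgeR 4.0.16 (quasi-likelihood, TMM, R 4.3.3), SE being the absolute log2 fold change over the root of F. FPKM of members were compared by two-sided exact permutation tests (scipy 1.17.1). Alternatives were DESeq2 1.42.0, limma 3.58.1 on log2(FPKM + 1 or 0.1), other filters, size factors and WT sets, summed alpha-defensin loci, a replicate block and each library left out. In simulated data edgeR recovered 200 of 200 changed genes for Apc against WT, with 5 false calls. The planted changes were larger than that of Mmp7 and lay only in genes above a minimum level. This recovery thus says little about smaller changes or low genes such as Mptx2.

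Members and lists were chosen with earlier results of these data known. Named were all members, at most the 4 largest called changes per list, 12 defining genes of the lists (Wnt3, Egf, Dll4, Sox9, Atoh1, Spdef, Gfi1, Ephb3, Lyz2, Clps, Pnliprp2, Reg3g) and the 3 nearest patterns of Lyz1, Mmp7 and Ang4. Same-numbered Apc and WT libraries share a line number in their titles. Their deviations correlated by -0.018 to 0.220 (4 pairs, median 0.112), other pairs by a median of -0.043. Promoters came from RefSeq (GRCm38.p6).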

Additional observations from a re-analysis of the deposited data

Results flagged for a closer look

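In 6 of 30 groups of values (10 genes in 3 groups), 1 library lay farther from the rest than Dixon's 95% limit allows, where chance gives about 1 in 20. Apc replicate 2 was high for Ang4 (58.2 FPKM), Defa17 (15.9 FPKM) and Defa24 (553 FPKM). Apc replicate 1 was low for Mmp7 (88.4 FPKM), Apc replicate 6 high for Mptx2 (6.62 FPKM) and WT replicate 2 high for Defa30 (2193 FPKM). In NAIVE_F, which entered no comparison, Nupr1 had 87.8 FPKM, above the highest WT library (66.5 FPKM). That value lies within the P-Rspo3 range of 56.4 to 98.9 FPKM, and P-Rspo3 is the genotype label of NAIVE_F. In the same library Ang4 (57.8 FPKM), Mmp7 (16.5 FPKM) and Mptx2 (2.12 FPKM) lay below every P-Rspo3 library. The remaining members lay within the range of that group, and whether the label is right was not tested.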

How the results depend on the processing

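All calls among the 10 genes for Apc against WT and for Apc against P-Rspo3 kept their direction and their side of the threshold under every alternative run, and the 1 gene not called, Mptx2 for Apc against WT, became called only without Apc replicate 6. A replicate block for the line number was fitted on lines 1, 2, 5 and 6, and Apc against WT again had 1 member higher and 8 lower (Mmp7 1.66, Lyz1 -2.39, on the log2 scale), and the block changed no call. With libraries left out in turn, 8 to 9 members were lower.

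For P-Rspo3 against WT no member was called under any alternative, and values near 0 changed sign. On the log2 scale Ang4 was -0.061 with limma on log2(FPKM + 1), -0.062 on log2(FPKM + 0.1) and -0.047 against the flox lines alone. Defa30 was -0.121 with limma on either scale. Itln1 was -6.31e-06 with DESeq2 size factors, -1.07e-05 with DESeq2, -0.014 at a minimum of 1 FPKM, -0.066 with limma on either scale and -0.088 against the flox lines alone. Leaving out 1 library gave -0.28 to 0.28 for Ang4, -0.24 to 0.37 for Defa30, -0.13 to 0.29 for Habp2, -0.22 to 0.22 for Itln1 and -0.39 to 0.033 for Mmp7. The cause was not tested.

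Over all genes, P-Rspo3 against WT had 1 call, against 228 with DESeq2, 266 against the flox lines alone, 75 with all 3 groups in 1 fit, 13 without a filter, 6 with the newer form of the test, and 7 and 3 with limma on log2(FPKM + 1) and log2(FPKM + 0.1). Leaving out P-Rspo3 M or WT 1 gave 10 calls each, and leaving out 4d gave 2. Apc against WT had 4412 calls, against 2550 with limma on log2(FPKM + 1) and 2834 at a minimum of 1 FPKM, where 12334 genes were tested. Apc against P-Rspo3 had 4392, against 2554 and 2797 in the same settings. Counts of 4 to 14 (Lyz2 in Apc) limit the low genes.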

Other observations

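In LIPO the members had 1100 (Lyz1), 29.9 (Mmp7), 172 (Ang4), 86.9 (Defa17), 3119 (Defa24), 838 (Defa30), 684 (Itln1), 4.86 (Mptx2), 3.31 (Habp2) and 61.9 FPKM (Nupr1). In NAIVE_F they had 1050 (Lyz1), 16.5 (Mmp7), 57.8 (Ang4), 80.1 (Defa17), 4313 (Defa24), 963 (Defa30), 920.4 (Itln1), 2.12 (Mptx2), 4.79 (Habp2) and 87.8 FPKM (Nupr1). Alpha-defensin loci held 0.127% of all counts in LIPO and 0.172% in NAIVE_F.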
